A study of Mus musculus with 4 samples.

Results

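A set of 358 autosomal mouse promoters was selected on its measured methylation, which was at least 8 percentage points lower in replicate 2 than in replicate 1 in tumors of both the 344SQP and the 344SQR line. They were drawn from 17732 autosomal promoters that could be scored, of which they are 2.02%. A promoter here is the stretch around a transcription start site that begins 1000 bp before it and ends 500 bp past it, with all stretches of a gene joined, and it could be scored when it held 3 or more CpG sites with at least 20 reads in every tumor. A working reading of such promoters is that they are methylated in host cells and less so in tumor cells, so that they would be lower where tumor cells make up more of the sample. The share of tumor cells was not measured, so the promoters are called here the selected promoters.

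Reduced representation bisulfite sequencing, in which CpG-rich fragments are sequenced after bisulfite has turned unmethylated cytosines into uracil, was run on 4 bulk tumors. 344SQP is a parental lung adenocarcinoma line from a mouse model that carries the p53 R172HΔg/+ allele, and 344SQR is the anti-PD1-resistant line made from it. For each tumor 500000 cells were injected subcutaneously into the leg of syngeneic female 129Sv/Ev mice 12 to 16 weeks old, and 2 tumors of each line, each from its own mouse, were sequenced. Every mouse was given anti-PD1 intraperitoneally at 10 mg/kg, 4 doses from day 4, and the tumor was removed 24 h after dose 4. No untreated tumor was used, and the leg tumors still held cells of the host. The tables held 116794455 and 138331886 CpG calls in 344SQP replicates 1 and 2, and 160548303 and 174689402 in 344SQR replicates 1 and 2. Values of the 4 tumors are given in that order throughout, as the percent of reads that were methylated, averaged over the sites of a promoter, and each strand of a CpG counts as a site.

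Methylation of CpG cytosines is laid down and copied by DNA methyltransferases and differs between cell types. Promoters rich in CpG, called CpG islands, are mostly unmethylated in normal cells, whereas CpG-poor promoters are often methylated except in the cell types that use the gene. A bulk tumor holds cancer cells, leukocytes, vessels, fibroblasts and neighboring tissue, so its methylation at a promoter is an average over them. A different mix of cells and a difference within 1 kind of cell therefore cannot be told apart in these samples.

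The selected promoters averaged 64.0%, 49.3%, 54.1% and 35.4% methylation in the 4 tumors. In the other promoters that could be scored the averages were 16.9%, 19.3%, 16.4% and 17.6%. The selected promoters were thus mostly methylated to an intermediate or high level in replicate 1, and 344SQR replicate 2 was the lowest tumor. These values chose the promoters and are a description only. The median difference between replicate 2 and replicate 1 was -12.7 points in 344SQP (from -48.1 to -8.07) and -17.8 points in 344SQR (from -40.8 to -8.01). The difference was larger in 344SQR for 257 promoters and in 344SQP for 101. In a single line, 461 promoters were at least 8 points lower in replicate 2 in 344SQP and 1164 in 344SQR, and the 358 that met both are 77.7% of the first number and 30.8% of the other. The opposite pattern, at least 8 points higher in replicate 2 of both lines, was more common, at 1488 promoters (8.39%).

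By the mean of both replicate 1 tumors, 12 of the 358 promoters lay below 20% methylation, 52 from 20 to 40%, 107 from 40 to 60%, 140 from 60 to 80% and 47 from 80 to 100%. By the mean of both replicate 2 tumors the numbers in the same classes were 59, 103, 113, 81 and 2. The fullest classes thus lay from 40 to 80% in replicate 1 and from 20 to 60% in replicate 2. The median ratio of replicate 2 to replicate 1 was 0.790 in 344SQP and 0.649 in 344SQR, and it was 0.5 or less in both lines for 38 promoters, 21 of them of protein-coding genes. Methylation was under 10% in both replicate 2 tumors at 11 promoters and in both replicate 1 tumors at 0. The 11 are the promoters of Tinagl1, Cnksr1, Akr1b8, Pik3c2g, Sipa1l3, Scx, Lrrc8e, Ptges, Gm13420, Gm4211 and Gm43397.

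Depth was slightly lower at the selected sites than elsewhere. The 358 promoters held 2477 distinct CpG sites, and the median coverage of these was 91, 103, 126 and 118 reads, against 98, 112, 130 and 133 at all 1081201 sites with at least 20 reads in every tumor. Of the 2477 sites, 2010 (81.1%) were lower in replicate 2 of both lines, 1452 (58.6%) by at least 8 points, and 61 were higher in both. In 135 promoters every site was lower in both. The rule averaged these same sites to choose the promoters, so these counts follow largely from the choice and are a description only. The median promoter held 5 sites with at least 20 reads in every tumor, against 31 among all promoters that could be scored. Only 3 or 4 were held by 158 promoters, and 20 or more by 19. Since 24 of the promoters share all their sites in 11 groups, the 358 promoters rest on 345 distinct sets of sites, and some of these sets overlap.

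Whether the replicates differ in their mix of cells was looked at with marker genes and the X chromosome, and neither gives a share of tumor cells. At 22535 X-linked sites with at least 20 reads in every tumor, there were 15.4, 12.4, 14.5 and 11.3 X reads per 1000 autosomal reads. Replicate 2 had fewer X reads than replicate 1 in both lines. The 187 X-linked promoters that were dense in CpG, with an observed number of CpG above 0.6 of that expected from their C and G content, averaged 27.8%, 21.5%, 25.1% and 17.3% methylation, and 155 of them (82.9%) were lower in replicate 2 of both lines while 17 were higher in both. At 9030 autosomal promoters of the same CpG density the averages were 5.25%, 7.10%, 5.24% and 7.07%. In female cells with an inactive X, CpG-dense promoters are methylated on that X and not on the other. The X-linked reads and X-linked methylation were thus lower in the same tumors in which the selected promoters were lower. Whether either has a part in the selected promoters was not tested.

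Marker genes of host cells did not show the pattern of the selected promoters as lists. Of 42 leukocyte genes, 9 could be scored. They averaged 40.2%, 53.4%, 42.1% and 48.8% methylation, with Zap70 highest at 77.5% over the 4 tumors, and 3 were at least 8 points higher in replicate 2 of both lines and 1 at least 8 points lower. Of 22 endothelial genes 14 were scored, at 29.5%, 42.0%, 33.1% and 39.4%, with 5 higher, 0 lower and Nos3 highest at 83.4%. Of 28 fibroblast genes 12 were scored, at 15.3%, 23.4%, 15.5% and 22.6%, with 4 higher, 0 lower and Twist1 highest at 55.8%. In all 3 lists replicate 2 was the higher tumor of each line, opposite to the selected promoters. Skeletal muscle genes (12 of 22 scored) averaged 43.4%, 48.0%, 41.2% and 41.3%, with 3 higher and Myh4 lower. Adipocyte genes (6 of 12 scored) averaged 31.4%, 33.9%, 28.9% and 24.4%, with 0 past 8 points either way.

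Epithelial genes other than keratins were mostly low in methylation or differed either way. Junction, adhesion and membrane genes (34 of 40 scored) averaged 12.6%, 13.9%, 11.4% and 11.3%, with 15 under 5% in every tumor, 3 at least 8 points higher in replicate 2 of both lines, and Cldn4 and Pkp3 lower. Keratins (6 of 14 scored) averaged 33.1%, 30.7%, 33.2% and 24.1%, with Krt7 lower and 0 higher. By any amount, 3 keratins were lower in replicate 2 of both lines and 0 higher, with a median difference of -6.67 points. Among epithelial transcription and splicing regulators (19 of 25 scored) the averages were 15.2%, 18.9%, 15.03% and 19.1%, with 3 higher and 0 lower. Epithelial proteases, inhibitors and trafficking genes (37 of 53 scored) averaged 19.2%, 22.2%, 17.8% and 18.5%, with 4 higher and 0 lower. Lung lineage genes (8 of 20 scored) averaged 20.2%, 22.6%, 20.5% and 21.8%, with 0 past 8 points either way. Germline genes (28 of 41 scored) averaged 76.0%, 79.4%, 73.6% and 72.9%, with 3 higher and Zp3 lower. Not all of them were highly methylated, since Ccdc155 was at 6.29%, 8.11%, 6.38% and 3.80%. Over all lists 6 of 185 scored genes (3.24%) were at least 8 points lower in replicate 2 of both lines, against 2.02% of all scored promoters, and 28 (15.1%) at least 8 points higher, against 8.39%. The 6 come from 5 lists.

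A gene of cell contacts was among the promoters with the largest difference between replicates. Igsf5 (ENSMUSG00000000159, chr16:96360668-96362294) encodes JAM4, an adhesion protein of tight junctions in epithelia, and its 8 sites, covered by 85 to 195 reads, averaged 54.5%, 25.8%, 50.2% and 18.5%. Both replicate 2 tumors were below both replicate 1 tumors, and the lines overlapped. A second annotated Igsf5 gene (ENSMUSG00000117081) holds the same 8 sites and is counted beside it among the 358. Within Igsf5, 2 sites upstream of the start were at 53.2%, 38.7%, 60.6% and 34.0%, whereas 6 sites downstream of it were at 55.0%, 21.4%, 46.8% and 13.3%. The site at position 96361818 was the lowest in all tumors except 344SQR replicate 2, with 37.7% of 151 reads methylated in 344SQP replicate 1 (95% Wilson interval 30.4 to 45.7%) and 3.74% of 107 reads in replicate 2 (1.46 to 9.22%). In 344SQR it was 31.9% of 191 reads (25.7 to 38.9%) and 14.9% of 195 reads (10.6 to 20.5%), and the intervals cover the counting of reads only.

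The sequence of a measured stretch of Igsf5 is shown because it holds the 6 sites downstream of the start. The difference between replicates was larger at these than at the 2 sites upstream of the start. Here and below, bases are lower case, capitals mark CpGs measured with at least 20 reads in every tumor, and each is written 5′ to 3′ on the strand of the gene, from build GRCm38.p6 of RefSeq. The Igsf5 stretch, chr16:96361780-96361919 on the plus strand, holds 6 measured CpGs.
Igsf5: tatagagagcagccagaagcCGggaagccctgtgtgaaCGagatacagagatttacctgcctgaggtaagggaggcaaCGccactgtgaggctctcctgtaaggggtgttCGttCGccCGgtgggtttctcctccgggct

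Of the desmosome, tight junction and keratin genes in the marker lists, Pkp3, Cldn4 and Krt7 met the rule. Pkp3 encodes plakophilin 3, a plaque protein of desmosomes, and its 16 sites averaged 67.4%, 52.6%, 60.7% and 40.4%. The promoter is split in its behavior. The 6 sites near the first start were at 94.0%, 95.1%, 93.7% and 87.4%, whereas 10 sites near a downstream start, chr7:141079824-141080211, were at 51.4%, 27.0%, 40.8% and 12.2%. Most of the difference between replicates thus lies at the downstream start, where the lines again overlapped. Krt7, a keratin of simple epithelia, was at 32.4%, 22.6%, 33.2% and 12.2% over 23 sites, and an antisense gene, Gm671, holds the same 23 sites. Cldn4, which encodes a claudin of tight junctions, was at 39.8%, 30.7%, 35.5% and 16.7% over 3 sites upstream of its start. In all 3 genes 344SQR replicate 2 was the lowest tumor.

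Further genes of epithelia and their barriers were chosen after their values were seen. Misp, which encodes an actin-binding protein that anchors the mitotic spindle, was at 48.0%, 24.2%, 35.5% and 10.4% over 18 sites. The window of Misp overlaps the protein-coding gene Palm. Eps8l2, an actin regulator of stereocilia, was at 19.9%, 11.8%, 17.4% and 7.56% over 25 sites. Both were lowest in 344SQR replicate 2. Cldn14, a claudin of the inner ear and kidney, was at 69.0%, 55.5%, 59.6% and 40.7% over 11 sites, and the noncoding gene 2410003I16Rik beside it was at 80.6%, 63.6%, 89.8% and 68.1%. Cdsn, which encodes corneodesmosin of the outer skin, was at 60.9%, 49.5%, 53.9% and 41.8%. Muc2, the main secreted mucin of the gut, was at 76.9%, 68.5%, 69.8% and 38.8%. These genes cover skin, gut and ear, and claudins as a family, named by their symbols, gave 2 of 15 scored promoters and keratins 1 of 22, against 2.02% of all scored promoters.

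Il22ra1 and Chrna1, which encode receptor subunits, were among the promoters with the largest differences. Il22ra1 (ENSMUSG00000037157, chr4:135727172-135728672) encodes a receptor chain through which interleukin 22 acts on epithelia. Its 6 sites, with 29 to 270 reads, averaged 53.3%, 30.1%, 44.4% and 12.1%, with 344SQR replicate 2 lowest and the lines overlapping. Chrna1 (ENSMUSG00000027107, chr2:73579838-73581338), the alpha subunit of the muscle acetylcholine receptor, averaged 72.9%, 46.4%, 46.4% and 17.7% over 6 sites with 97 to 198 reads. For Chrna1, 344SQP replicate 2 and 344SQR replicate 1 were at almost the same level. Esr1, the estrogen receptor alpha gene, chosen after its values were seen, was at 33.3%, 19.3%, 25.2% and 13.6% over 9 sites. Trpv1, the capsaicin receptor of sensory neurons, also chosen after its values were seen, was at 77.7%, 55.7%, 65.1% and 37.2%. Shown are the Il22ra1 stretch upstream of the start, chr4:135727575-135727736 on the plus strand with 4 measured CpGs, and the Chrna1 stretch at its start, chr2:73580225-73580348 on the minus strand with 6.
Il22ra1: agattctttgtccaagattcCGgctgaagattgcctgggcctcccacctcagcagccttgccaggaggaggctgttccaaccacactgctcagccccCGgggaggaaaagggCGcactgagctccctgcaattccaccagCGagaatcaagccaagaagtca
Chrna1: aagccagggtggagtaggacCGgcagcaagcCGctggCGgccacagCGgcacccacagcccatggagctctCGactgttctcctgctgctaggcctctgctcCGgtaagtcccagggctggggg

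Arhgef18, Cmbl and Apoc2 were each highest in 344SQP replicate 1, then in 344SQR replicate 1, 344SQP replicate 2 and 344SQR replicate 2. Arhgef18 (ENSMUSG00000004568, chr8:3392038-3393538), an exchange factor that activates RhoA at epithelial junctions, averaged 43.1%, 14.2%, 31.7% and 9.34% over 22 sites with 67 to 275 reads. Among its 22 sites the lowest and highest were 26.7% and 53.6% in 344SQP replicate 1 and 4.40% and 16.6% in 344SQR replicate 2, so that no site of the one reached the range of the other. Cmbl (ENSMUSG00000022235, chr15:31567798-31569298), a hydrolase that activates a prodrug in liver and intestine, averaged 41.7%, 16.3%, 40.4% and 14.8% over 12 sites with 107 to 280 reads. The lines were nearly equal there. Apoc2 (ENSMUSG00000002992, chr7:19673420-19678941), the apolipoprotein that activates lipoprotein lipase, averaged 53.7%, 28.8%, 46.3% and 19.6% over 6 sites upstream of its start. The window of Apoc2 overlaps the protein-coding genes Apoc4 and Gm44805. The Arhgef18 stretch, chr8:3392933-3393160 on the plus strand with 17 measured CpGs, and the Cmbl stretch, chr15:31568718-31568905 on the plus strand with 8, are shown for their many neighboring sites.
Arhgef18: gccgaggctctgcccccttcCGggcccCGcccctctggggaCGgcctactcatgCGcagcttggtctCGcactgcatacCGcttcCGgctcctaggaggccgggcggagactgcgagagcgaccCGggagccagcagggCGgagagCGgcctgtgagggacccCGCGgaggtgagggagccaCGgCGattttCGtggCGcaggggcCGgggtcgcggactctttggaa
Cmbl: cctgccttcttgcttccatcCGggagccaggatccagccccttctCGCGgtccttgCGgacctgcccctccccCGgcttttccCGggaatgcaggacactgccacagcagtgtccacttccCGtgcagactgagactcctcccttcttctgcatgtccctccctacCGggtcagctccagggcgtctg

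Other metabolic genes, chosen after their values were seen, differed in how the lines compared. Fbp2, the muscle form of fructose-bisphosphatase, was at 31.1%, 13.8%, 31.3% and 11.8% over 15 sites. Pklr, the pyruvate kinase gene of liver and red cells, was at 26.1%, 9.49%, 27.9% and 10.6% over 8 sites. In both, the tumors sorted by replicate number and not by line. Ldhd, a mitochondrial D-lactate dehydrogenase, differed from these at 38.7%, 21.03%, 17.8% and 3.64%, with both 344SQR tumors below both 344SQP tumors. Ptges, which makes prostaglandin E, was at 20.6%, 7.61%, 14.9% and 4.91% over 13 sites. Akr1b8, an aldo-keto reductase, was at 12.8%, 3.50%, 14.1% and 5.05% over 11 sites, among the lowest levels of the set.

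Some genes used in muscle or tendon met the rule, although the skeletal muscle list as a whole did not follow it. Myhas, a noncoding gene antisense to the skeletal myosin heavy chain cluster, was at 70.7%, 37.4%, 62.3% and 35.2% over 6 sites, and 3 of these are the 3 sites of Myh4, the fast myosin gene beside it. Myh4 was at 65.5%, 46.0%, 42.1% and 31.1%, and its sites differed widely from each other. The 3 sites of Myhas outside Myh4 were at 75.9%, 28.8%, 82.5% and 39.3%, so these sorted by replicate. At a minimum of 50 reads the line difference of Myhas was 12.4 in place of -5.29 points. Chosen after their values were seen, Cav3 (caveolin of muscle) was at 55.0%, 35.8%, 42.2% and 10.9% and Alpk3 (a kinase-like protein of heart muscle) at 59.6%, 42.7%, 59.9% and 42.0% over 24 sites. Scx, the scleraxis transcription factor of tendon, was at 24.5%, 9.43%, 17.2% and 5.60% over 48 sites with 124 to 300 reads. Its window overlaps the protein-coding gene Bop1. Scx was the gene with the most sites among the 11 promoters under 10% in both replicate 2 tumors.

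Germline and reproductive genes were represented by Zp3, which encodes the sperm receptor of the egg coat, at 78.9%, 70.2%, 59.3% and 39.0% over 3 sites of its coding sequence. The 3 sites differed, since the deepest, at position 135980219 with 157 to 177 reads, was at 58.6%, 77.4%, 81.03% and 76.8%, lowest in 344SQP replicate 1, while the others had 21 to 42 reads. The line difference of Zp3, -25.5 points over the 3 sites, was -6.28 with reads pooled (FDR 0.0803), 10.96 at a minimum of 50 reads and -15.3 without 344SQR replicate 2 (FDR 0.0959). Blood proteins were represented by the neighbors F7, coagulation factor VII, at 66.3%, 52.8%, 48.1% and 38.8%, and Proz, protein Z, at 54.1%, 44.2%, 30.6% and 11.8%, chosen after their values were seen. Syna, the syncytin A gene of placental cell fusion, was at 63.3%, 20.4%, 50.6% and 20.1% over 3 sites, also chosen after its values were seen. In the last, the tumors sorted by replicate number.

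Noncoding genes outnumbered protein-coding genes. Of the 358 promoters, 138 (38.5%) belong to protein-coding genes, against 74.3% of all promoters that could be scored. Long intergenic RNAs gave 74 (20.7%, against 5.25%), processed pseudogenes 52 (14.5%, against 4.37%), antisense RNAs 37 (10.3%, against 5.77%), microRNAs 19 (5.31%, against 2.27%), gene models awaiting experiments 14, small nucleolar RNAs 6 and other types 18. Among the other 4370 promoters with a mean of at least 20% methylation, a group made after the values were seen to have promoters of like level, protein-coding genes were 49.3%, long intergenic RNAs 9.91%, processed pseudogenes 15.7%, antisense RNAs 8.22% and microRNAs 5.24%. No test of these shares was made. Of the 220 noncoding promoters, 77 overlap a protein-coding gene.

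Among the noncoding genes with the largest differences, Platr22, a long RNA described in embryonic stem cells, was at 60.6%, 22.5%, 41.0% and 10.6% over 7 sites with 45 to 142 reads. Gm39090, whose window overlaps Bcl7c, was at 45.7%, 20.4%, 42.1% and 15.1% over 12 sites, and Gm49736 at 44.3%, 25.7%, 46.0% and 12.7% over 10 sites. In all 3, both replicate 2 tumors were below both replicate 1 tumors. The largest average difference of any selected promoter was at 9330188P03Rik, at 72.1%, 24.0%, 54.4% and 26.2% over 4 sites with 35 to 72 reads, which was chosen after its values were seen. Mir6943, a microRNA gene whose window overlaps the kinase gene Grk6, was at 79.8%, 55.9%, 44.2% and 14.1% over 5 sites with 108 to 133 reads. There both 344SQR tumors were below both 344SQP tumors.

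MicroRNA genes gave 19 of the selected promoters. Mature sequences were found in RefSeq for 13 of these genes, 24 in all, and a single seed (bases 2 to 8, which pair with targets) was held by more than 1. That seed belongs to Mir106b and Mir93, which lie with Mir25 in an intron of Mcm7, a subunit of the helicase that opens DNA for replication. The windows of the 3 share the same 6 sites, at 58.2%, 48.3%, 54.4% and 40.5%, so these 3 promoters are a single measurement. The 3 genes were chosen after their values were seen, and their sequences are shown with those of Mir6943 so that the shared seed can be read, with the seed in capitals.
mmu-miR-106b-5p: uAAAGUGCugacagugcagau
mmu-miR-93-5p: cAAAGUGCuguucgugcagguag
mmu-miR-25-3p: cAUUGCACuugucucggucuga
mmu-miR-6943-5p: uGGGGUGAgguuggaagcua

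The selected promoters were poor in CpG. The median ratio of observed to expected CpG was 0.278, against 0.605 over all promoters that could be scored and 0.389 over the other 4370 promoters with a mean of at least 20%. Only Gm19719, CT485616.1 and Gm15609 were above 0.6 (0.838% of the set, against 50.9% of all promoters scored). The median number of CpGs per 100 bp was 1.67, against 4.33 and 2.45. Both medians were thus lower than in either group, and no test was made.

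The sites lay on both sides of the start. Counting a site for each gene it belongs to, 365 sites lay over 500 bp upstream of a start, 984 up to 500 bp upstream and 1233 from the start to 500 bp downstream. Replicate 2 was lower by similar amounts in each, with differences of -14.9, -14.5 and -14.1 points in 344SQP and -18.99, -19.2 and -17.7 points in 344SQR. By annotation 47.8% of these sites lay upstream of the gene, 25.5% in exons outside coding sequence, 13.5% in introns, 9.68% in coding sequence and 3.49% downstream of the gene. Repeats marked in the genome held 5.17% of the distinct sites, against 3.81% of all promoter sites.

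The promoters were chosen for their difference between replicates and their flanks were not, so a smaller difference in the flanks follows from the choice. Within 1000 bp of the promoter's edges 81 of the 358 had 3 or more qualified sites, and there the medians were -1.70 points in 344SQP and -5.96 in 344SQR (0.278 and 0.0985 around all promoters scored), with 14 (17.3%) at least 8 points lower in both, against 3.24%. From 1000 to 5000 bp the medians over 151 promoters were -0.925 and -4.99 (0.289 and -1.20 around all), and 15.9% were at least 8 points lower in both, against 6.33%. From 5000 to 20000 bp they were -0.200 and -2.53 over 259 promoters (0.0892 and -1.51 around all), with 8.88%, against 4.53%. Within 100 kb of each other, 28 of the promoters formed 13 groups in which no site was shared, among them Mslnl with Mir6966 and Mir3082, Ntn5 with Fam83e, Pla2g2e with Rnf186, and F7 with Proz. By chromosome the selected share ran from 1.13% of scored promoters on chromosome 3 (10) to 3.01% on chromosome 5 (38).

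Short motifs were counted on both strands in the RefSeq promoter from 250 bases before to 50 bases after the start, which was found for 158 of the 358 genes. A match is a description of the letters only. The letters TGANTCA of activator protein 1 were present in 15.8% of the 158, among them Chrna1, Cldn4 and Il22ra1, against 4.59% of 11316 measured genes and 7.93% of all 27025. GGAATG of TEAD was present in 22.8%, against 11.7% and 14.6%, and TGTTTAC of forkhead factors in 5.70%, against 2.36% and 3.55%. For CACCTG, an E-box, it was 24.7%, against 18.99% and 20.03%. AGATAA of GATA factors was present in 12.0%, against 5.95% and 11.4%, and TATAAA of the TATA box in 13.9%, against 6.80% and 14.2%. AACCGGT, a grainyhead-like motif, was present in 0 of the 158, against 1.53% and 0.999%. GGGCGG, the GC box, was present in 25.3%, against 64.7% and 35.9%. The measured genes include many CpG islands, which differ in base composition, and no test was made.

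Families named by symbol are given beside the 2.02% of all scored promoters that met the rule. Unnamed gene models (Gm and Rik) gave 191 of 4110 scored promoters (4.65%) and microRNA genes with a Mir symbol 14 of 275 (5.09%). Solute carriers gave 2 of 254, zinc finger genes 2 of 299 and genes with a tubulin, myosin or kinesin symbol 2 of 79. Myh4 and the noncoding Myhas, which share sites, both carry a myosin symbol. Potassium, sodium, calcium and chloride channels gave 1 of 127, a family that leaves out receptor channels such as Chrna1 and Trpv1. G protein-coupled receptors gave 1 of 113, regulators of small GTPases 1 of 132 and small nucleolar and nuclear RNA genes 1 of 51. Hox genes gave 0 of 38, fibroblast growth factors 0 of 18 and Wnt ligands with their frizzled receptors 0 of 25.

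The contrast of the lines, 344SQR against 344SQP, was not used to choose the promoters and asks how tumors of the resistant line differ. The selected promoters were mostly lower in 344SQR. Averaged over the 358, methylation was 56.6% ± 10.4 in 344SQP and 44.7% ± 13.2 in 344SQR (SD, n = 2), a difference of -11.9 points, with p = 0.667 by a two-sided exact permutation test. With 2 tumors against 2 no p under 0.05 can be reached. The SD of each line comes from the gap between its replicates, which the rule selected for, so neither the SD nor this p says how large the difference between lines is. The same holds for the SD and the edgeR p of single promoters below. The difference was -4.52 points without 344SQP replicate 1, -19.2 without 344SQP replicate 2, -21.2 without 344SQR replicate 1 and -2.54 without 344SQR replicate 2. Of the 358 differences 332 were below 0 and 26 above, the median was -10.9 points, and the medians were -0.189 over all promoters scored and -1.96 over the other 4370 with a mean of at least 20%. A difference of -20 points or less was found at 69 promoters, and 27 differed by no more than 2 points. 344SQR replicate 1 was below 344SQP replicate 1 at 325 promoters, and 344SQR replicate 2 below 344SQP replicate 2 at 329. These counts of promoters stand without shares over all promoters scored, so they describe the set and are not read further.

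Tested by the likelihood ratio at each site, combined over a promoter as a signed Stouffer z score and adjusted over all 20135 promoters, 280 of the 358 (78.2%) were lower in 344SQR at an FDR under 0.05, against a background of 29.5%, and 11 (3.07%) were higher, against 9.03%. Among the other 4370 promoters with a mean of at least 20% the shares were 47.0% lower and 23.7% higher. This test treats reads as independent and takes no account of the spread between tumors. edgeR takes its spread from the tumors, and without a replicate term it called 0 of the 358 lower or higher at an adjusted p under 0.05, against 0.0745% and 0.00% of 20124 promoters. At an unadjusted p under 0.05 edgeR had 34 lower (9.50%, against a background of 8.08%) and 0 higher (against 0.711%). The rule chose promoters whose replicates differ, which enlarges that spread, so these edgeR counts cannot be read against the background. With replicate number as a block edgeR called 97 lower and 0 higher, among them named genes that it did not call without the block. The blocked counts are not read against the background either, for the reason given under the processing. Both 344SQR tumors were below both 344SQP tumors at 113 promoters (31.6%), which is near the background of 32.0%, and above both at 0, against 7.73%. The rule by itself makes such separation of the lines rarer, so nothing is read from these counts. The Stouffer counts rest on single tumors, since without 344SQR replicate 2 the lower count was 113 and the higher 61, without 344SQP replicate 1 they were 146 and 67, and the higher count was 0 without 344SQP replicate 2 or without 344SQR replicate 1.

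Gm15609, Gm23008, Gm24067 and AC115789.2 were the promoters with at least 5 sites that fell with the smallest Stouffer FDR in 344SQR. Gm15609, a long RNA gene whose window overlaps the synapse gene Shank3, has 112 sites with 22 to 302 reads, at 46.9%, 35.3%, 37.4% and 14.6%. Its line means were 41.1% ± 8.18 and 26.0% ± 16.1 (SD, n = 2), with a Stouffer FDR of 6.94e-298 and an edgeR adjusted p of 0.720, and its difference of -15.1 points was -3.72 without 344SQR replicate 2, -9.31 without 344SQP replicate 1 and -26.5 without 344SQR replicate 1. Gm23008 and Gm24067 are small nucleolar RNA genes within Ppan, a ribosome assembly gene. Gm23008 was at 85.8%, 69.3%, 58.9% and 28.5% over 11 sites, with a difference of -33.9 points between lines (FDR 2.30e-123, edgeR adjusted p 0.489), which was -18.7 without 344SQR replicate 2. Gm24067 was at 53.7%, 42.2%, 37.3% and 17.99% over 20 sites, a mixture of 7 sites at 0.579%, 0.549%, 0.440% and 0.571% and 13 sites at 82.3%, 64.7%, 57.2% and 27.4%. All 11 sites of Gm23008 are among these 13, so the 2 promoters are largely a single measurement. Its difference between lines was -20.3 points (FDR 4.68e-75, edgeR adjusted p 0.557), and -10.7 without 344SQR replicate 2. In both genes, and in Mir6943, no tumor of 344SQR reached the level of 344SQP. AC115789.2, a long RNA gene on chromosome 18, was at 57.7%, 45.2%, 38.4% and 18.4% over 15 sites, with a difference of -23.0 points (FDR 3.41e-97, edgeR adjusted p 0.547) that was -13.1 without 344SQR replicate 2. With a replicate block, which pairs tumors by number only, the edgeR adjusted p was 2.49e-12 for Gm15609 and 5.37e-11 for Gm23008. For AC115789.2 it was 8.92e-06 and for Gm24067 1.03e-05.

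The 11 promoters higher in 344SQR were those of 6330409D20Rik, Gm15533, CT485616.1, Cubn, 2410003I16Rik, Klb, Gm47157, Gm19566, Gm6440, Gm26772 and Akr1b8. 6330409D20Rik, whose window overlaps the adaptor gene Sh2d3c, was at 51.1%, 26.5%, 57.1% and 37.3% over 31 sites, with line means of 38.8% ± 17.4 and 47.2% ± 14.0 (SD, n = 2), an FDR of 2.61e-47 and an edgeR adjusted p of 0.840. Its difference of 8.40 points was -3.90 without 344SQP replicate 2 and -1.51 without 344SQR replicate 1. CT485616.1, an antisense RNA gene whose window overlaps Rasal3, was at 46.9%, 32.4%, 53.7% and 30.4% over 51 sites (FDR 3.30e-05, edgeR adjusted p 0.961), and its 2.40 points became -4.87 and -9.24 without the same tumors. Gm15533, an antisense RNA gene whose window overlaps the muscle repair gene Trim72, was at 74.5%, 60.1%, 82.9% and 66.7% over 5 sites, with 7.51 points (FDR 1.59e-05, edgeR adjusted p 0.864) that became -0.624 without 344SQR replicate 1 and 0.333 without 344SQP replicate 2. Cubn, a receptor for vitamin B12 uptake in gut and kidney, was at 53.3%, 22.9%, 48.7% and 30.4%, with a difference of 1.47 points (FDR 0.00347, edgeR adjusted p 0.966) that became -13.8 without 344SQP replicate 2 and -7.68 without 344SQR replicate 1. In a Mantel-Haenszel test with the replicate block the FDR of Cubn was 0.437. Without 344SQP replicate 1 the differences of 6330409D20Rik, CT485616.1, Gm15533 and Cubn were 20.7, 9.68, 14.7 and 16.7 points, and without 344SQR replicate 2 they were 18.3, 14.1, 15.7 and 10.6. In these 4 genes the lines overlapped, and in each 344SQP replicate 1 and 344SQR replicate 1 were the 2 highest tumors.

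At the genes with the largest differences between replicates, the differences between lines ran from near 0 to -38.7 points. Cmbl had line means of 29.0% ± 17.96 and 27.6% ± 18.1 (SD, n = 2), a difference of -1.37 points with a Stouffer FDR of 0.866 and an edgeR adjusted p of 0.978. Chrna1 had 59.6% ± 18.7 and 32.0% ± 20.2, a difference of -27.6 points with an FDR of 9.13e-46 and an edgeR adjusted p of 0.618, and it was -13.3 points without 344SQR replicate 2, -14.4 without 344SQP replicate 1 and -41.9 without 344SQR replicate 1. Mir6943 had 67.9% ± 16.9 and 29.2% ± 21.3, a difference of -38.7 points with an FDR of 3.33e-59 and an edgeR adjusted p of 0.533, and it was -23.7 without 344SQR replicate 2. With the replicate block the edgeR adjusted p was 0.000106 for Chrna1 and 1.35e-07 for Mir6943. Of the genes named for the largest difference between replicates, Myhas (FDR 0.235) and Cmbl were not called. Both passed the Stouffer threshold when any 1 tumor was left out, with differences of 11.3 points for each without 344SQP replicate 1, of -21.9 and -14.1 without 344SQP replicate 2, of -18.8 and -14.2 without 344SQR replicate 1, and of 8.25 and 11.4 without 344SQR replicate 2.

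At the edge of the rule, the smallest differences inside it were at Gm29649 (-8.01 points in 344SQR, with 92.4%, 81.1%, 80.7% and 72.7%), Unc13c (-8.03 in 344SQR, with 26.6%, 12.8%, 15.6% and 7.55%) and Gm2213 (-8.07 in 344SQP, with 91.7%, 83.6%, 84.4% and 71.8%). Just outside it were Epor (-7.99 in 344SQP, with 39.8%, 31.8%, 34.5% and 23.5%), Mir190b (-7.99 in 344SQR, with 75.1%, 60.6%, 71.6% and 63.6%) and Eva1b (-7.98 in 344SQR, with 11.7%, 2.67%, 11.1% and 3.13%). At these sites a single read out of 20 would be worth 5 points.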

How the data were processed

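Methylation was measured in 2 tumors of each line. According to the submitters' processing notes, reads were trimmed with Trim Galore 0.4.1 and cutadapt 1.9.1, mapped to mm10 with Bismark and Bowtie 1.1.2 and tabulated for methylKit. The authors deposited for each CpG site and strand the coverage as counts of reads. The authors deposited the methylated and unmethylated shares of these reads as percent, with no coverage minimum. Methylated reads were recomputed as coverage times percent, rounded. Promoters came from GENCODE vM21 basic.

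Members, marker lists and tests were chosen with earlier results of these data known. Each site was tested by a binomial likelihood ratio for line, with p not below 2.2e-16. Sites were combined as a signed Stouffer z, two-sided, with Benjamini-Hochberg adjustment over all 20135 promoters. A call's direction is the sign of the mean difference between lines, a rule taken after the sign of z had first been used, and the counts of 280 and 11 were the same under both. edgeR 4.0.16 (R 4.3.3) fitted methylated and unmethylated reads by quasi-likelihood. Other steps used Python 3.11.15, numpy 2.4.6, scipy 1.17.1, pandas 2.3.3 and pysam 0.24.0. The tests were tested on simulated data. These data held no spread between tumors other than the differences put in, so they do not show how the tests act under such spread.

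Named genes were the 12 with at least 5 sites and the largest average difference between replicates, those in a marker list, the 4 lower and 4 higher in 344SQR with the smallest FDR and at least 5 sites, and the 3 on each side of the limit, of which some are not reported here. Other genes were chosen after their values were seen, as were the comparison with promoters of at least 20% methylation, the X-linked promoters, flanks, motifs, split promoters, microRNAs and the sequences printed. The grainyhead-like motif was first searched in a longer form. Alternatives were coverage minimums of 10 and 50, merged strands, at least 5 sites, limits of 6 and 10 points, pooled reads, the 5′-most start, edgeR, a replicate block and leaving out each tumor.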

Additional observations from a re-analysis of the deposited data

Results flagged for a closer look

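Reads on chromosome Y were found in all 4 tumors, although the mice were female and chromosome Y is used in no comparison above. Below 10 Mb, 344SQP replicates 1 and 2 had 4518 and 7099 CpG calls on chromosome Y, and 344SQR replicates 1 and 2 had 1842 and 2061. Each count is above the 3 calls that a count of 0 would allow. That limit concerns the counting of reads only, and the source of these reads was not tested. The same tumors had 114884901, 136525741, 158029080 and 172601241 autosomal calls. Below 10 Mb both 344SQP tumors were above both 344SQR tumors. Over the whole chromosome the calls were 47437, 35071, 89028 and 31130, and there replicate 1 was the higher tumor of each line, also relative to the autosomal calls.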

How the results depend on the processing

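With minimums of 10 and 50 reads the rule chose 400 and 287 promoters in place of 358, of which 339 and 255 were shared, and with at least 5 sites it chose 200. Merged strands (356), limits of 6 and 10 points (498 and 242), pooled reads (372) and the 5′-most start (348) stayed within 1.5 times. For the lines, the count lower in 344SQR was 282 and 247 at the 2 minimums, the latter of the 328 still scored at 50 reads, and 281 with merged strands, and edgeR without a block gave 0 lower and 0 higher, with 34 and 0 at an unadjusted p under 0.05, in place of 280 and 11. With the replicate block a Mantel-Haenszel test gave 289 lower and 9 higher (29.0% and 8.46% of all promoters), and edgeR gave 97 lower and 0 higher (9.87% and 2.27% of all). The rule chose promoters whose differences between replicates go the same way in both lines, which is what the block takes out, so the blocked edgeR counts are not read against those shares either. With the block edgeR had adjusted p under 0.05 at 7 named genes that it did not call without it, Gm15609 (2.49e-12), Gm23008 (5.37e-11), Mir6943 (1.35e-07), AC115789.2 (8.92e-06), Gm24067 (1.03e-05), Chrna1 (0.000106) and Platr22 (0.0469), and in the Mantel-Haenszel test the FDR of Cubn was 0.437. The block pairs tumors by a number that the labels share and nothing else. Across 17732 promoters the differences between replicates in the lines had a Pearson r of 0.756, 0.729 without the selected promoters and 0.663 over all 20135, with only 2 pairs behind each. A call lost under the block is not a weaker effect. Leaving out each tumor gave 113 to 340 lower, 0 to 67 higher and a mean difference between lines of -21.2 to -2.54 points, against -12.1 to -11.8 over the other settings. At 10 reads Platr22 went from -15.8 to -6.53 points and Il22ra1 from -13.5 to -7.61. At 50 reads Krt7 went from -4.80 to -2.99, Myhas and Zp3 turned to 12.4 and 10.96 points higher in 344SQR, Epor, not called, went from -6.84 to 2.15, Il22ra1 from -13.5 to -5.45 (FDR 0.0533), Gm29649 from -10.05 to -0.861 (FDR 0.472) and Mir190b from -0.264 to -15.97 (FDR 2.84e-06). With pooled reads Zp3 was at -6.28 (FDR 0.0803), Gm29649 at -3.64 (FDR 0.128), Mir190b at -11.7 (FDR 8.60e-11), Il22ra1 at -7.41, Pkp3 at -6.04 in place of -9.46, Myhas at -1.17 in place of -5.29 and Cubn at 2.29 in place of 1.47, and with merged strands Epor was at -9.90 (FDR 0.0232).

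Leaving out a tumor turned the difference between lines, in points, at Platr22 (-34.8 to 3.25), Igsf5 (-21.7 to 10.1), Myhas (-21.9 to 11.3), Il22ra1 (-29.6 to 2.68), Gm39090 (-17.9 to 9.01), Gm49736 (-22.3 to 11.03), Apoc2 (-21.6 to 5.06), Arhgef18 (-22.6 to 6.32), Cmbl (-14.2 to 11.4), Cldn4 (-18.6 to 0.274), Pkp3 (-19.6 to 0.654), Krt7 (-15.3 to 5.70), 6330409D20Rik (-3.90 to 20.7), Gm15533 (-0.624 to 15.7), CT485616.1 (-9.24 to 14.1), Cubn (-13.8 to 16.7), Eva1b (-4.57 to 4.45) and Mir190b (-7.51 to 6.98). Without turning, the range was -35.6 to -15.3 at Zp3, -15.7 to -4.44 at Gm29649, -15.04 to -1.19 at Unc13c and -28.9 to -9.38 at Myh4, with the call lost without 344SQR replicate 2 at Zp3 (FDR 0.0959), Gm29649 (-6.05, FDR 0.487) and Unc13c (-4.10, FDR 0.0886) and without 344SQP replicate 1 at Unc13c (FDR 0.649) and Myh4 (FDR 0.231). Epor ranged from -12.3 to -1.35 and was at -10.84 without 344SQP replicate 2. Epor, Mir190b and Eva1b, not called with all tumors, each gained a call when some tumor was left out, and for Eva1b in both directions. Such a call rests on a single tumor of a line. In each case the cause was not tested. At the minimum of 20 reads a single read is worth 5 points, which limits sites more than promoters.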
